A study of Rattus norvegicus with 18 samples.

Results

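Rat kidneys obstructed for 3 days were compared with kidneys obstructed for 1 day, gene by gene, in RNA sequencing of renal parenchyma. The left ureter had been exposed through the abdomen under ketamine and tied with silk in every animal of both groups, and the kidney was taken 1 or 3 days later. The 10 libraries labelled 1 day (5 replicates) or 3 days (5 replicates) were used of 18 in the series, which also holds libraries of 7 and 14 days. Strain, sex and age of the rats are not stated in the labels, and no library of an unobstructed kidney was used, so a gene that was lower at 3 days was lower than in a kidney already obstructed for 1 day. All 30957 genes of the deposited table were considered, and the 13675 that passed a filter on low counts in these 10 libraries were tested. Both groups are models of sudden, complete obstruction with the opposite ureter left in place, and they say nothing of partial or relieved obstruction.

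Tying 1 ureter raises pressure in the tubules behind the knot, and the urine that cannot leave stretches tubular epithelium. Over the next days tubule cells are known to lose transport functions, some die, others divide, monocytes enter from the blood, and fibroblasts begin to lay down matrix that ends in scarring. The first days are therefore a passage from acute stress of the epithelium to repair, inflammation and early fibrosis.

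Libraries held 5488540 to 12049915 counts, and transcripts of the mitochondrial genome made up 7.11% to 13.6% of them. Kidney markers were present throughout: the phosphate transporter Slc34a1 of the proximal tubule ran from 27.5 to 1170 FPKM, uromodulin (Umod) of the thick ascending limb from 16.6 to 381, and the water channel Aqp2 of the collecting duct from 14.4 to 370.5. Replicate 5 of day 1 stood apart from the other 4 of its group. Its score for collecting duct genes, the mean of their log2(FPKM+1) after centring each gene over the 10 libraries, was 1.23 against -0.35 to -0.20 in the others, and its endothelial score was 0.96 against -0.37 to -0.05. Its proximal tubule score was -1.21 against -0.36 to -0.03. The summed FPKM of 15 urothelial genes, of which Krt13 was at 0 in every library, was 190.2 there, 10.4 to 19.9 in the other day 1 libraries, 124.8 in day 3 replicate 1 and 17.0 to 26.5 in the other day 3 libraries. List counts that changed by more than 1.5 times without replicate 5 of day 1, or from 0, are given both ways.

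Between 1 and 3 days 1203 genes changed, which is 8.8% of those tested (edgeR quasi-likelihood test, Benjamini-Hochberg adjusted p under 0.05). Of these 632 rose (4.62% of genes tested) and 571 fell (4.18%). Large rises outnumbered large falls: 252 genes rose and 76 fell by at least 2-fold, and 26 rose and 18 fell by at least 4-fold. The other 875 changed by less than 2-fold, and the median absolute log2 fold change of the called genes was 0.69 with a median standard error of 0.15. The FPKM of the 5 libraries of one group lay wholly above those of the other for 1127 genes (8.24%), and 806 of these were among the 1203. Over all genes tested the median log2 fold change was -0.01.

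Leaving out replicate 5 of day 1 raised the number of calls to 2005 (1099 higher, 8.04% of genes tested, and 906 lower, 6.63%), of which 1141 were among the 1203 and all 1141 had the same direction. Leaving out day 1 replicate 1, 3 or 4 lowered it to 440, 477 or 471, and leaving out day 3 replicate 3 or 4 lowered it to 628 or 451. The share of calls that were rises was 52.5% with TMM factors, 65.2% when libraries were scaled by their totals alone, 60.8% with upper-quartile factors and 64.6% in limma fits on log2(FPKM+1) or log2(FPKM+0.1). Of the 116 genes named below as having risen or fallen, 81 passed the test without each of the 10 libraries in turn, and the adjusted p of the other 35 reached at most 0.112. Where such a gene is named, its highest adjusted p and the library left out are given. That library was often not the only one whose absence ended the call. Leaving out any of 7 libraries ended it for Ifih1, Pdzk1, Ppp1r1a, Bhlhe40, Ighm and Gli1. The number was 8 for Wdr12, Myc, Krt7, Zbtb16 and Klf9, 9 for Cd3e, and from 1 to 6 for the rest. Every list count below is to be read against 4.62% of all genes called higher and 4.18% called lower. Without day 1 replicate 5 these shares were 8.04% and 6.63%.

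**Figure D1:**
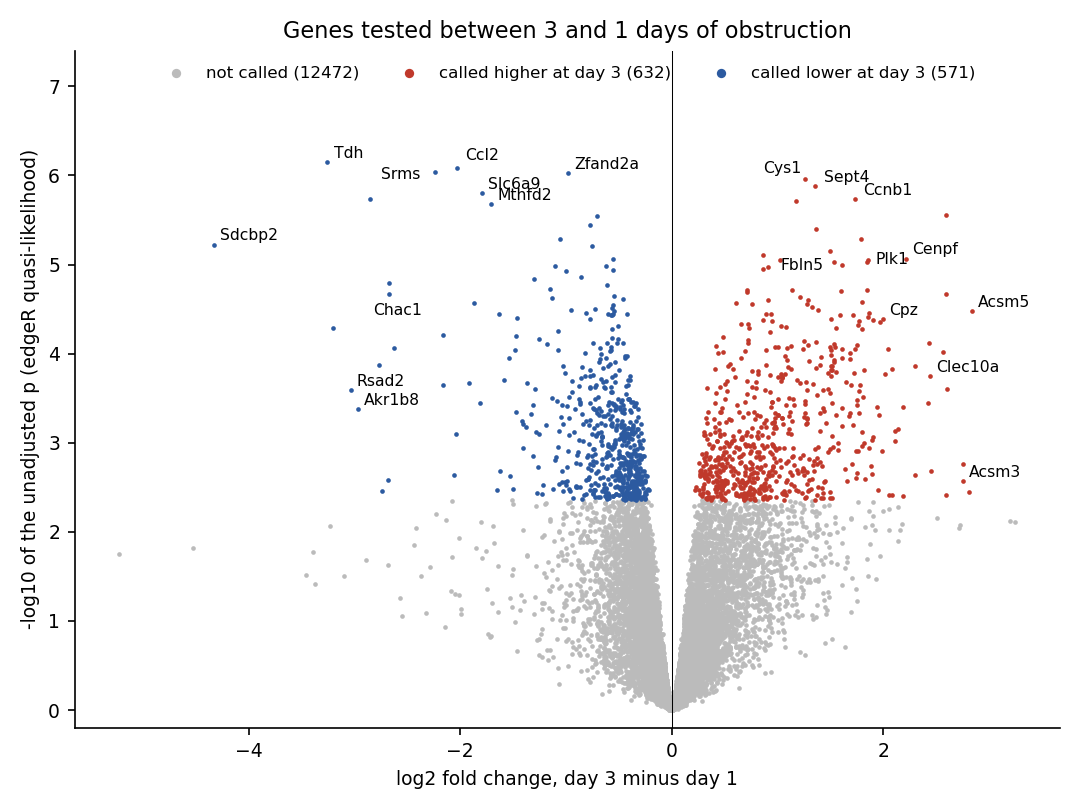
Each point is 1 of 13675 genes, with its log2 fold change between 3 and 1 days on the horizontal axis and the -log10 of its unadjusted p (edgeR) on the vertical axis. Red points are the 632 genes that rose and blue points the 571 that fell; large falls such as Sdcbp2 and Tdh and rises such as Acsm5 and Cenpf are labelled.

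Many genes for charging and supplying amino acids to protein synthesis fell. Cytosolic aminoacyl-tRNA synthetases join each amino acid to its tRNA, and the transcription factor ATF4 is known to drive their genes together with those for amino acid synthesis and import when the integrated stress response is active. All 19 tested synthetases had a negative log2 fold change and 12 of them fell (13 without day 1 replicate 5), with a median of -0.42 against -0.01 over all genes and 4.18% of all genes called lower. Of 28 tested genes of the ATF4 stress response, Atf4 itself included, 11 fell and none rose, with a median of -0.48. The log2 fold change was negative in 23 of the 28 and positive in 5. Without day 1 replicate 5 12 fell and 2 rose, with a median of -0.44. In bulk tissue, fewer cells of a type and less RNA per cell cannot be told apart, which holds for every level given here.

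Aars, the alanine synthetase, measured 85.1, 76.9, 71.2, 75.8 and 73.1 FPKM in day 1 replicates 1 to 5 and 47.8, 51.6, 43.0, 49.6 and 44.0 in day 3 replicates 1 to 5. Every day 3 library lay below every day 1 library, and the log2 fold change was -0.71 ± 0.08 (SE; edgeR adjusted p = 0.00296). Such complete separation downward was seen in 12 of the 19, against 3.21% of all genes. Cars, the cysteine synthetase, fell from 15.6 to 18.8 FPKM down to 9.06 to 12.0 (log2 fold change -0.76 ± 0.09, edgeR adjusted p = 0.00442). Tars and Mars, the threonine and methionine enzymes, both had a log2 change of -0.56 ± 0.07 (edgeR adjusted p = 0.00473 each) with no overlap between the groups. The synthetases for histidine (Hars), glutamine (Qars) and the alpha chain for phenylalanine (Farsa) had the smallest differences, of -0.07 ± 0.07, -0.08 ± 0.06 and -0.14 ± 0.07, and none of these 3, chosen after their values were seen, passed the test.

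Among ATF4 targets the steepest fall was in Chac1, an enzyme that breaks down glutathione. It measured 5.32, 5.99, 3.49, 2.32 and 7.16 FPKM at day 1 and 1.06, 0.831, 0.265, 1.08 and 0.574 at day 3. The groups did not overlap, and the log2 fold change was -2.67 ± 0.38 (edgeR adjusted p = 0.00643). Slc6a9, which carries glycine into cells, measured 26.9, 26.8, 18.1, 19.5 and 23.7 FPKM at day 1 and 8.37, 7.51, 3.82, 7.92 and 6.06 at day 3. Its lowest day 1 library was above its highest day 3 library by more than 2-fold, with a log2 change of -1.79 ± 0.19 (edgeR adjusted p = 0.00258). Trib3, a pseudokinase that feeds back on ATF4, fell from a mean of 5.28 to 1.47 FPKM (log2 fold change -1.87 ± 0.27). Mthfd2, of mitochondrial one-carbon metabolism, fell from 10.3 to 3.19 (-1.71 ± 0.19), and Asns, asparagine synthetase, from 28.0 to 12.5 (-1.18 ± 0.19).

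The factor's own transcript and its stress partner, both in the same list, moved less than the targets named above. Atf4 measured 188, 205, 166, 146 and 234 FPKM at day 1 and 145, 145, 133, 177 and 137 at day 3, with overlapping groups and a log2 change of -0.36 ± 0.13 (edgeR adjusted p = 0.0963). Ddit3, the death-linked factor CHOP, had a log2 change of 0.14 ± 0.19 (edgeR adjusted p = 0.689), and without day 1 replicate 5, which read 17.6 FPKM against 8.72 to 9.46 in the other 4, it rose by 0.38 (edgeR adjusted p = 0.0332). Both genes were chosen after their values were seen. Of 23 genes of the unfolded protein response of the endoplasmic reticulum 2 rose and 1 fell, with a median of 0.09, or 4 and 1 without day 1 replicate 5. At 7 days the mean FPKM of Chac1 was 1.14, that of Slc6a9 4.83 and that of Aars 41.0, each nearer to its mean at 3 days than at 1 day.

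**Figure D2:**
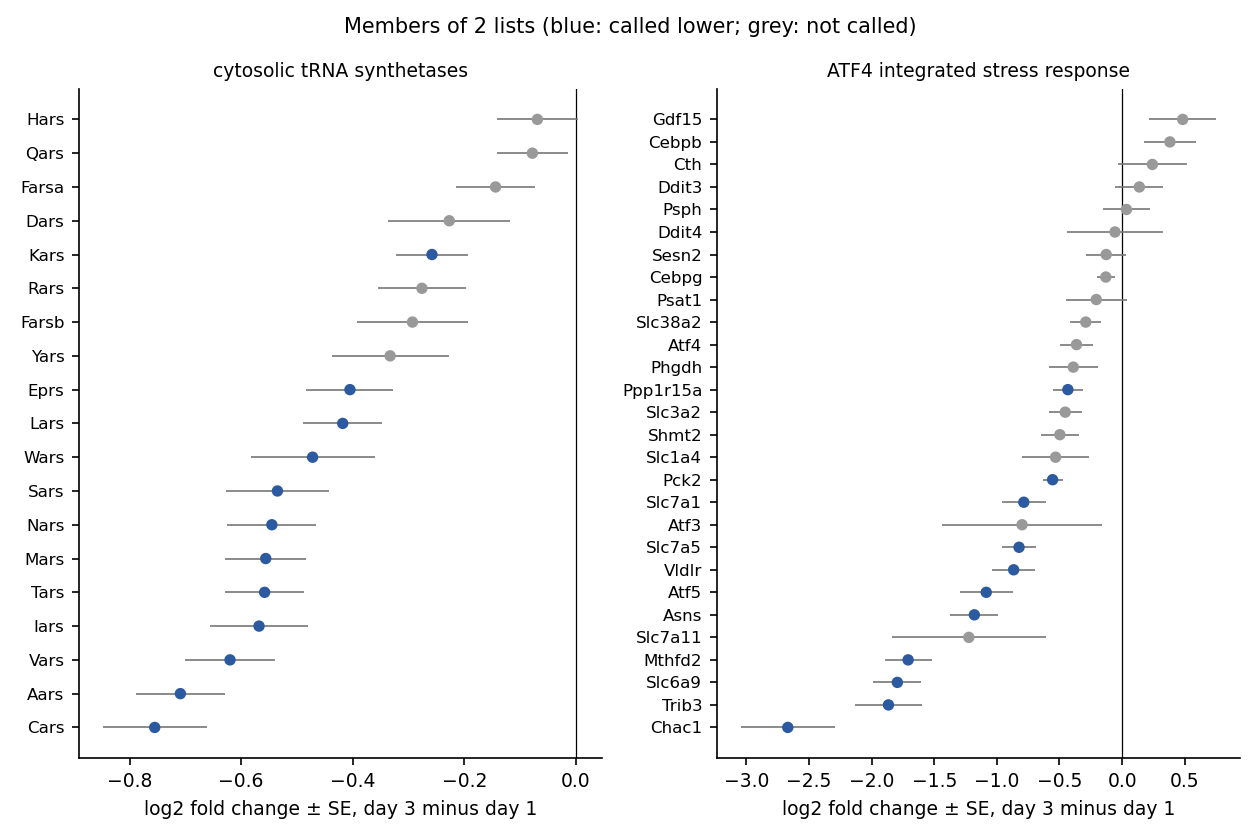
Log2 fold change (horizontal axis, with SE as whiskers) of every tested cytosolic tRNA synthetase (left) and gene of the ATF4 stress response, Atf4 included (right). Blue points fell and grey points did not pass the test. All 19 synthetases lie left of 0, and Chac1, Trib3 and Slc6a9 lie farthest left among the ATF4 targets.

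Promoters of 3 of these genes are printed because they hold the letters TGATGNAA, the core of the C/EBP-ATF response element through which ATF4 is known to act. Each window runs from 250 bases before to 50 bases after the gene start in the RefSeq table (GRCr8), read 5′ to 3′ on the gene's strand, with matches on either strand in capitals. They are Chac1 at chr3:126795881-126796180 on the plus strand, Trib3 at chr3:161275484-161275783 on the minus strand and Aars (Aars1 in RefSeq) at chr19:55908232-55908531 on the plus strand.
Chac1: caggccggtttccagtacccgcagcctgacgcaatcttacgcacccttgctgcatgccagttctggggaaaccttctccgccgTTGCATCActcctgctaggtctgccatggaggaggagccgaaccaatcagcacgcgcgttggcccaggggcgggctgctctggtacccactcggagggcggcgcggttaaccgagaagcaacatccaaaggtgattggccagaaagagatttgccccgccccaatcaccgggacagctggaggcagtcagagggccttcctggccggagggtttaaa
Trib3: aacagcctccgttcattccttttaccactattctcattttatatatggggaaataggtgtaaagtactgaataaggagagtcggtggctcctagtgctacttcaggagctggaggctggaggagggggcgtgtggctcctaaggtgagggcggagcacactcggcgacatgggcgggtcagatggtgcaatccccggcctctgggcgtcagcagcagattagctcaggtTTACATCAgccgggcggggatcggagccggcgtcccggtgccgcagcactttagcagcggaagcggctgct
Aars1: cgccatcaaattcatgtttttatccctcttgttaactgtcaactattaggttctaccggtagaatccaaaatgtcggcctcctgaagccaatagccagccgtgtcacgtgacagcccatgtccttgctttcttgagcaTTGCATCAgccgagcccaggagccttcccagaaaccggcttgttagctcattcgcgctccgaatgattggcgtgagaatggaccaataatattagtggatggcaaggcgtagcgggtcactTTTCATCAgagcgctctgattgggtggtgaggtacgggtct
The match began 167 bases before the start in Chac1, 21 bases before it in Trib3 and 112 bases before it in Aars1, which held a second one just after its start. Letters of this kind stood in 7 of 17 synthetase promoters and in 5 of 27 promoters of ATF4 stress response genes, against 1.78% of the 9601 tested genes with a promoter in the table. Of the genes that fell, 6 of 12 synthetases and 4 of 11 ATF4 targets held them. A match is a description of the sequence and not a measured binding site.

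Genes of cell division had the highest median of the gene lists examined. Of 39 tested genes of mitosis and the spindle 32 rose and none fell, with a median log2 fold change of 1.37 against -0.01 over all genes, and 4.62% of all genes rose. All 39 had a positive log2 fold change, and in 33 the 2 groups did not overlap (5.03% of all genes were higher without overlap). The same 32 and 0 were counted without day 1 replicate 5. The earlier step of the cycle shifted less: of 40 genes of DNA replication and G1/S entry 9 rose and none fell, with a median of 0.42.

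Ccnb1, cyclin B1, which with Cdk1 starts mitosis, measured 3.49, 2.55, 1.93, 2.95 and 2.31 FPKM at day 1 and 8.73, 6.86, 9.84, 8.51 and 10.0 at day 3. Each day 3 library was above all 5 of day 1, with a log2 change of 1.73 ± 0.19 (edgeR adjusted p = 0.00258). Plk1, the kinase that drives mitotic entry, measured 2.08, 1.38, 0.898, 1.39 and 1.27 FPKM at day 1 and 5.08, 3.56, 6.07, 4.72 and 5.81 at day 3, and its log2 fold change was 1.85 ± 0.24 (edgeR adjusted p = 0.00473). Replicate 1 was the highest of the day 1 libraries for both genes, but it did not reach the lowest day 3 value of either. Cenpf, a protein of the kinetochore, rose from a mean of 0.480 to 2.24 FPKM (2.21 ± 0.28) and Prc1, which bundles the spindle midzone, from 3.30 to 9.32 (1.49 ± 0.19). Top2a, the topoisomerase that untangles chromosomes, rose by 1.80 ± 0.26, Mki67, the Ki-67 marker of cycling cells, by 1.53 ± 0.25, and Foxm1, a transcription factor of mitotic genes, by 1.24 ± 0.20 on the log2 scale.

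Of the replication genes, Tk1, thymidine kinase, had the clearest change. It read 12.7, 7.01, 8.07, 10.5 and 9.60 FPKM at day 1 and 20.8, 18.9, 18.9, 20.1 and 19.0 at day 3. These groups did not overlap, and its log2 fold change was 1.02 ± 0.13 (edgeR adjusted p = 0.00473). Ccne2, a cyclin of the G1/S step, rose by 0.76 ± 0.14 and Rrm1, a subunit of ribonucleotide reductase, by 0.41 ± 0.08. Ccna2, cyclin A2, rose by 1.15 ± 0.26, and its adjusted p was 0.0614 without day 3 replicate 3. Mcm2, a subunit of the replicative helicase, measured 12.1 to 18.9 FPKM at day 1 and 14.9 to 27.4 at day 3 and did not pass the test (log2 fold change 0.34 ± 0.18, edgeR adjusted p = 0.243). Mean levels at 7 days were 9.23 FPKM for Ccnb1, 6.66 for Plk1 and 21.2 for Tk1, against 8.79, 5.05 and 19.6 at 3 days.

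Promoters of Ccnb1, at chr2:33655176-33655475 on the minus strand, and Plk1, at chr1:186147408-186147707 on the plus strand (RefSeq, GRCr8), are printed to show the CHR element. CHR stands for cell cycle genes homology region, the site through which the DREAM complex and B-MYB are known to time late cell cycle genes. Capitals mark TTTGAA or TTTAAA on either strand, of which TTTAAA reads the same on both.
Ccnb1: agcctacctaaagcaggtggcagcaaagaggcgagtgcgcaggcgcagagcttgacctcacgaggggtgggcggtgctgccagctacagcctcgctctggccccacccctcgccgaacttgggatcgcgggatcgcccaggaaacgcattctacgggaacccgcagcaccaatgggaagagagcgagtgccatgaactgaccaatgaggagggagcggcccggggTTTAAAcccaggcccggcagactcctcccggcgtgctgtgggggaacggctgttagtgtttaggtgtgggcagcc
Plk1: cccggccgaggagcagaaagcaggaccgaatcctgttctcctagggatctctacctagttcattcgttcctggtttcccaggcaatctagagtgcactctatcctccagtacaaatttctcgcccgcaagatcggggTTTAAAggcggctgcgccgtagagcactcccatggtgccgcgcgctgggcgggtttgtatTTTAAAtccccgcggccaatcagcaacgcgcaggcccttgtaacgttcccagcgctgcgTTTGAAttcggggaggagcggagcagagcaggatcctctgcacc
In Ccnb1 the letters began 25 bases before the start, and in Plk1 there were matches 113 and 53 bases before it and another after it. They were in 33 of 34 promoters of mitosis genes, and in 28 of the 29 that belong to genes that rose, against 18.7% of the 9601 tested genes with a promoter. The letters CCAAT, a box often found near the CHR element, were in 25 of the 34 and 22 of the 29, against 37.4%. The E2F letters TTTNNCGC were in 14 of 29 promoters of the replication list but in 1 of the 6 of its genes that rose, against 8.26%.

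Several genes of monocyte recruitment, NF-kB signalling and necroptosis fell. Ccl2, the chemokine that draws monocytes, measured 37.4, 20.5, 37.5, 45.2 and 33.7 FPKM at day 1 and 6.66, 7.81, 8.14, 11.1 and 9.09 at day 3. No library of day 3 came near the lowest of day 1, and the log2 fold change was -2.03 ± 0.20 (edgeR adjusted p = 0.00258). Its mean was 34.2 FPKM at 7 days, against 34.8 at 1 day and 8.57 at 3 days. Ccl7, a related monocyte chemokine, fell by 1.92 ± 0.35 on the log2 scale, and Il33, an alarm cytokine released by damaged cells, fell from a mean of 285 to 103 FPKM (-1.48 ± 0.24). These 3 were the members that passed the test among 26 cytokines and chemokines, and the median over that list was 0.10. Without day 1 replicate 5 4 fell and 3 rose, with a median of 0.25.

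Of 26 genes of NF-kB feedback and its targets 7 fell and none rose, with a median of -0.56, or 9 and -0.40 without day 1 replicate 5. The share of all genes called lower was 4.18%, or 6.63% without that library. Nfkb1, the p105 precursor of the p50 subunit, measured 67.1, 49.9, 67.5, 68.7 and 54.7 FPKM at day 1 and 40.0, 40.7, 29.6, 44.1 and 41.7 at day 3. The groups were apart, with replicate 3 lowest at day 3, and the log2 fold change was -0.67 ± 0.11 (edgeR adjusted p = 0.00934). Traf1, a signalling adaptor, fell by 1.33 ± 0.27, and Sod2, the mitochondrial superoxide dismutase, fell by 0.69 ± 0.14 on the log2 scale (adjusted p = 0.0520 without day 3 replicate 4). Of 29 genes of cell death 4 fell and none rose, with a median of -0.15, or -0.05 with the same counts without day 1 replicate 5. They were Ripk3 and Mlkl, the kinase and the membrane-piercing effector of necroptosis, the death receptor Fas and the mitochondrial go-between Bid. Ripk3 measured 22.6, 20.5, 23.6, 19.9 and 31.6 FPKM at day 1 and 13.1, 11.9, 7.62, 14.3 and 15.6 at day 3, without overlap (-0.94 ± 0.17, edgeR adjusted p = 0.0126). Fas fell by 1.02 ± 0.18, Mlkl by 0.69 ± 0.15 and Bid by 0.74 ± 0.17, and the adjusted p reached 0.0553 for Mlkl without day 1 replicate 3 and 0.0712 for Bid without day 1 replicate 1.

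Interferon-stimulated genes, the antiviral set switched on by type I interferon, fell in part, by amounts that 1 library enlarged. Of 37 tested 5 fell and none rose, with a median of -0.85, against 4.18% of all genes called lower. Without day 1 replicate 5 the count was 11 and the median -0.34, against 6.63%. The list score of that library was 1.84, against -0.28 to 0.11 in the other day 1 libraries and -0.68 to -0.15 at day 3. Rsad2, the antiviral enzyme viperin, read 18.7, 8.02, 13.2, 24.9 and 71.7 FPKM at day 1 and 3.33, 5.38, 1.32, 3.54 and 3.12 at day 3. All day 1 libraries were above all day 3 libraries, replicate 5 most of all, and the log2 fold change was -3.04 ± 0.57 with it and -2.30 without it (edgeR adjusted p = 0.0137 and 0.00579). Ifi35 fell by 0.69 ± 0.14 and by 0.60 without that library. Parp14 and Ifih1, an RNA sensor, fell by 1.11 ± 0.26 and 0.74 ± 0.18, and their adjusted p reached 0.0778 without day 1 replicate 1 and 0.0795 without day 1 replicate 4. What makes that library high in this list was not tested.

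The promoter of Rsad2 at chr6:48788071-48788370 on the minus strand (RefSeq, GRCr8) is printed to show the interferon-stimulated response element, searched on both strands as GAAA, any 2 bases and GAAA, and given in capitals.
Rsad2: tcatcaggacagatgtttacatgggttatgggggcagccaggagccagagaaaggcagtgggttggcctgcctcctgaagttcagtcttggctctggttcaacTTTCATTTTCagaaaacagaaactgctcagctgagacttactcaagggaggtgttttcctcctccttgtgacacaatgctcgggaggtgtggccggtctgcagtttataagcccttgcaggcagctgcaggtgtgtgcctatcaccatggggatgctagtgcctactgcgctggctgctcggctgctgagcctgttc
The match began 147 bases before the start and reads on the opposite strand. Of the 27 list members with a promoter 18 held these letters, and of the 5 that fell 3 did, against 2.89% of the 9601 tested genes with one.

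Some genes of oxidative and other stress fell. Of 32 targets of NRF2, the factor that answers oxidants, 7 fell and none rose, with a median of -0.12. Without day 1 replicate 5 6 fell and 1 rose, with a median of -0.06. Over all genes 4.18% fell and 4.62% rose, or 6.63% and 8.04% without that library. The antioxidant response element, searched as TGACNNNGC, was in 10 of 26 promoters of the list and 1 of the 4 that belong to genes that fell, against 14.8% of tested genes. Hmox1, heme oxygenase, measured 48.8, 57.9, 33.2, 34.1 and 35.5 FPKM at day 1 and 13.1, 16.1, 5.58, 17.7 and 18.8 at day 3. Its groups were clearly apart (log2 fold change -1.58 ± 0.29, edgeR adjusted p = 0.0125). Akr1b8, an aldo-keto reductase that clears lipid aldehydes, fell from a mean of 39.3 to 5.02 FPKM (-2.97 ± 0.59), with day 1 replicate 1 at 90.3 and the rest of that group at 15.1 to 43.4. Gstm1, a glutathione transferase with close relatives that can share its reads, fell from 330 to 73.0 (-2.17 ± 0.40), Gpx2, a glutathione peroxidase, from 261 to 159 (-0.73 ± 0.11) and G6pdx, which makes NADPH, from 79.5 to 53.8 (-0.58 ± 0.10). Hspb1, the small heat shock protein HSP27, fell from a mean of 316 to 115 FPKM (-1.48 ± 0.23). Its list of 20 heat shock and chaperone genes had 1 rise and 2 falls, with a median of -0.06, against 4.62% and 4.18% of all genes. Of 29 hypoxia targets 3 fell and none rose, with a median of -0.15, against 4.18% and 4.62% of all genes. Without day 1 replicate 5 5 fell and 1 rose, against 6.63% and 8.04%. Ndrg1 fell from 1674 to 943 FPKM (-0.84 ± 0.17, adjusted p = 0.0559 without day 1 replicate 3) and Ldha, the lactate dehydrogenase chain that favours lactate, from 241 to 183 (-0.41 ± 0.08).

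A part of the genes that make ribosomes and a few of those that degrade proteins fell by small steps. Of 28 genes of ribosome biogenesis 7 fell and none rose, with a median of -0.21, and without day 1 replicate 5 11 fell, with a median of -0.23. Mybbp1a, a nucleolar protein, fell by 0.35 ± 0.07 and Wdr12, needed for the large ribosomal subunit, by 0.49 ± 0.12 on the log2 scale, and Myc, the growth factor-induced transcription factor, fell by 0.38 ± 0.10 from a mean of 74.3 to 57.9 FPKM. The adjusted p of these 3 reached 0.0662 and 0.103 without day 1 replicate 3 for Mybbp1a and Myc and 0.0819 without day 1 replicate 1 for Wdr12. Of 36 proteasome subunits 34 had a negative log2 fold change, 4 fell and none rose, with a median of -0.17, against 4.18% of all genes called lower. Without day 1 replicate 5 9 fell, with a median of -0.22, against 6.63% of all genes. Psmd11, a subunit of the lid of the 19S cap, read 31.3, 32.8, 31.6, 23.0 and 30.6 FPKM at day 1 and 19.5, 20.6, 17.4, 17.1 and 19.8 at day 3. These did not overlap, and the log2 fold change was -0.68 ± 0.11 (edgeR adjusted p = 0.00912). Psmb10, a catalytic subunit of the immunoproteasome, fell by 0.73 ± 0.15 (adjusted p = 0.0556 without day 1 replicate 1).

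**Figure D3:**
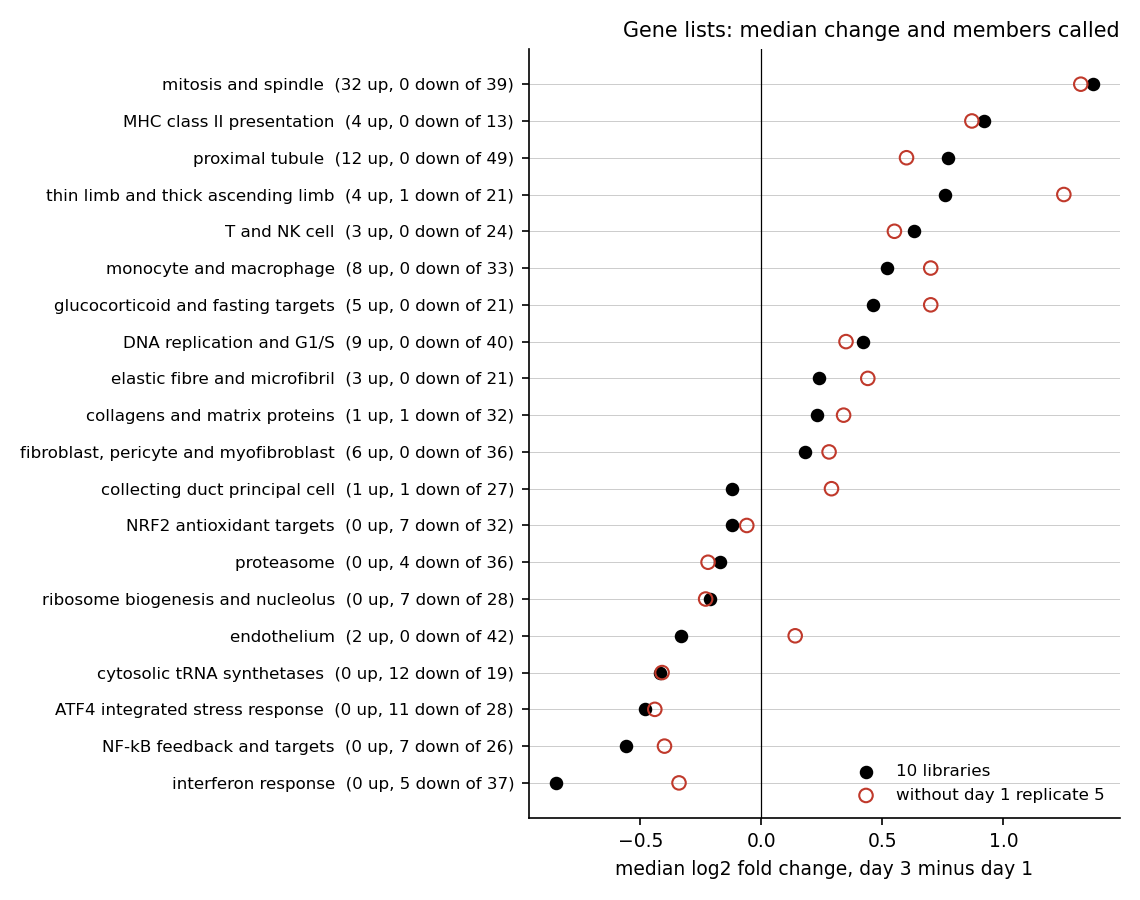
Median log2 fold change (horizontal axis) of the tested members of 20 gene lists, in all 10 libraries (filled) and without day 1 replicate 5 (open), with the numbers of members that rose and fell beside each name. Mitosis genes lie at 1.37 and tRNA synthetases at -0.42, or at 1.32 and -0.41 without that library, whereas the interferon, endothelial, collecting duct and thick ascending limb medians move when that library is left out.

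Genes of the proximal tubule, the segment that reclaims most of the filtered load, rose in part. Of 49 tested 12 rose and none fell, with a median of 0.77, against 4.62% of all genes called higher. Without day 1 replicate 5, the library with the lowest score for this list (-1.21), 16 rose with a median of 0.60, against 8.04%. Day 3 replicate 3 had the highest score, 0.96, against -0.11 to 0.52 in the other 4 of its group. Slc9a3, the sodium-proton exchanger of the brush border, read 5.33, 4.87, 3.54, 4.98 and 2.61 FPKM at day 1 and 14.9, 10.8, 17.3, 10.0 and 7.73 at day 3. Each day 3 library was higher than each day 1 library, and the log2 fold change was 1.51 ± 0.27 (edgeR adjusted p = 0.0112), or 1.36 without day 1 replicate 5. Aqp1, the water channel of this segment, read 55.4, 59.9, 59.5, 42.1 and 96.8 FPKM at day 1 and 207, 135, 229, 105 and 140 at day 3, again without overlap (1.38 ± 0.26, edgeR adjusted p = 0.0150). Here replicate 5 was the highest of day 1, unlike for the list as a whole.

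Other rises included Slc47a1, a carrier of organic cations into urine, by 1.19 ± 0.21, and Pdzk1, a scaffold of brush border transporters, by 1.45 ± 0.38 (adjusted p = 0.0952 without day 1 replicate 1). Well-known markers were not all among them. Slc34a1 read 145, 217, 76.3, 89.1 and 27.5 FPKM at day 1 and 300, 509, 1170, 397 and 90.3 at day 3, with a log2 change of 2.16 ± 0.69 that did not pass the test (edgeR adjusted p = 0.0742) but passed in DESeq2 (adjusted p = 0.0256). Day 3 replicate 5 lay within the day 1 range and replicate 3 far above the rest. Lrp2, the endocytic receptor megalin, did not pass either (0.55 ± 0.31, edgeR adjusted p = 0.273).

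In the loop of Henle, of 21 tested genes of the thin and thick ascending limb 4 rose and 1 fell, with a median of 0.76, or 6 and 1 with a median of 1.25 without day 1 replicate 5. Egf, the growth factor this segment secretes into urine, read 3.02, 2.13, 2.91, 1.59 and 1.66 FPKM at day 1 and 15.2, 6.71, 3.73, 8.36 and 5.70 at day 3. The lowest day 3 library was just above the highest of day 1, and the log2 fold change was 1.77 ± 0.33 (edgeR adjusted p = 0.0140). Kcnj1, the ROMK potassium channel, rose by 0.86 ± 0.19 and Ppp1r1a, an inhibitor of protein phosphatase 1, by 1.66 ± 0.43, and their adjusted p reached 0.0572 and 0.0918 without day 1 replicate 3 and 4. The exception was Nos1, the neuronal nitric oxide synthase of the macula densa, which fell from a mean of 1.83 to 0.440 FPKM (-2.04 ± 0.44, adjusted p = 0.0575 without day 3 replicate 4). Umod read 41.3 to 381 FPKM at day 3 and 16.6 to 77.4 at day 1 and did not pass the test (1.38 ± 0.57, edgeR adjusted p = 0.151).

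Collecting duct genes showed no common shift: of 27 tested 1 rose and 1 fell, with a median of -0.12, or 3 and 1 with a median of 0.29 without day 1 replicate 5. Cldn4, a claudin of the tight junctions there, fell from 520, 305, 529, 631 and 464 FPKM at day 1 to 144, 230, 82.8, 174 and 218 at day 3. The groups were apart, and the log2 fold change was -1.54 ± 0.26 (edgeR adjusted p = 0.0099), or -1.57 without replicate 5 of day 1. Krt7, a keratin of simple epithelia, read 40.6, 38.5, 33.5, 43.1 and 71.3 FPKM at day 1 and 96.5, 116, 110, 136 and 43.2 at day 3. Day 3 replicate 5 lay within the day 1 range, and the log2 fold change of 1.14 ± 0.29 (edgeR adjusted p = 0.0377) had an adjusted p of 0.0906 without day 1 replicate 1. Aqp2 read 24.8 to 51.1 FPKM in day 1 replicates 1 to 4, 370.5 in replicate 5 and 14.4 to 57.9 at day 3, with a log2 change of -1.44 ± 0.73 with and -0.02 without that library, neither of which passed the test (edgeR adjusted p = 0.234 and 0.977). Of 42 endothelial genes 2 rose and none fell, with a median of -0.33, or 3 and none with a median of 0.14 without day 1 replicate 5.

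Part of the genes of energy metabolism changed. Of 40 genes of fatty acid oxidation 6 rose and none fell, with a median of 0.18, and without day 1 replicate 5 6 rose and 1 fell. Of 42 nuclear genes of oxidative phosphorylation 0 passed the edgeR test, 8 had an unadjusted p under 0.05, and 2 passed in DESeq2, with a median of 0.18. Ldhb, the lactate dehydrogenase chain that favours pyruvate, read 170, 205, 143, 182 and 123 FPKM at day 1 and 331, 391, 359, 410 and 275 at day 3. It rose without overlap (log2 fold change 1.08 ± 0.17, edgeR adjusted p = 0.00732), while Ldha fell as given above. Acsm5, a medium-chain acyl-CoA synthetase, had a rise that was among the largest of all, from 0.395, 1.09, 1.34, 0.252 and 0.378 FPKM to 7.59, 4.85, 5.13, 4.25 and 3.73 (2.84 ± 0.42, edgeR adjusted p = 0.00657). Fabp3, a fatty acid binding protein, rose from a mean of 31.2 to 89.7 FPKM (1.52 ± 0.27). Acsm3, a relative of Acsm5, rose by 2.75 ± 0.71 and overlaps Eri2 (2.45 ± 0.61) on chromosome 1 of the deposited table, whose build is not named: Acsm3 spans 189514553 to 189541224 on the plus strand and Eri2 189540145 to 189549891 on the minus strand, so their reads may not be told apart. Day 3 replicate 3 held the highest value of both, 603 and 169 FPKM, and the adjusted p without day 1 replicate 4 was 0.0911 and 0.0848. Without day 3 replicate 3 the log2 fold change of Acsm3 was 1.60 (edgeR adjusted p = 0.0507).

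Of 50 genes of amino acid, urea cycle and tryptophan metabolism 6 rose and 6 fell, or 9 and 9 without day 1 replicate 5. Shares of all genes were 4.62% and 4.18%, or 8.04% and 6.63% without that library. Acy1, which frees amino acids from their acetylated form, rose from 83.6, 89.2, 89.5, 82.0 and 28.8 FPKM to 177, 222, 394, 199 and 202. The groups did not overlap (log2 fold change 1.68 ± 0.34, edgeR adjusted p = 0.0186), with replicate 5 low at day 1 and replicate 3 high at day 3. Kynu, kynureninase, rose by 1.82 ± 0.41 and Gamt, which makes creatine, by 1.04 ± 0.21, and their adjusted p reached 0.0638 without day 1 replicate 3 and 0.0520 without day 1 replicate 1. On the other side, Tdh, which breaks down threonine, read 1.77, 1.99, 2.48, 2.24 and 3.10 FPKM at day 1 and 0.215, 0.469, 0.0897, 0.273 and 0.166 at day 3. Its groups were far apart (-3.26 ± 0.32, edgeR adjusted p = 0.00258). Tph1, which starts serotonin synthesis, fell by 2.16 ± 0.34, Asl, argininosuccinate lyase of arginine synthesis, from a mean of 102 to 51.0 FPKM (-1.01 ± 0.18) and Got1, cytosolic aspartate aminotransferase, from 127 to 62.1 (-1.04 ± 0.21, adjusted p = 0.0503 without day 1 replicate 1).

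Targets of the glucocorticoid receptor and of fasting rose in part. Of 21 tested 5 rose and none fell, with a median of 0.46, or 5 and 1 with a median of 0.70 without day 1 replicate 5. Fkbp5, a co-chaperone that restrains the receptor, read 18.9, 15.4, 16.1, 16.5 and 23.1 FPKM at day 1 and 35.2, 31.6, 23.2, 47.0 and 50.9 at day 3. The lowest day 3 library barely cleared the highest of day 1, and the log2 fold change was 1.04 ± 0.19 (edgeR adjusted p = 0.0120). Zbtb16, another known target, rose by 1.83 ± 0.47 and Klf9 by 0.42 ± 0.11, and their adjusted p reached 0.0931 without day 1 replicate 1 and 0.0879 without day 3 replicate 4. Klf9 also did not pass when libraries were scaled by their totals alone (edgeR adjusted p = 0.0562). At 7 days the means of Fkbp5, Zbtb16 and Klf9 were 22.7, 1.38 and 13.0 FPKM, against 37.6, 4.65 and 23.8 at 3 days and 18.0, 1.25 and 17.6 at 1 day. Of 22 clock genes 1 rose and 1 fell, near the 4.62% and 4.18% of all genes, and without day 1 replicate 5 3 rose and 1 fell. Usp2 rose by 0.82 ± 0.18 and Bhlhe40 fell by 0.62 ± 0.17, and the adjusted p reached 0.0582 without day 1 replicate 4 and 0.112 without day 1 replicate 1. The labels do not state the hour at which kidneys were taken.

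**Figure D4:**
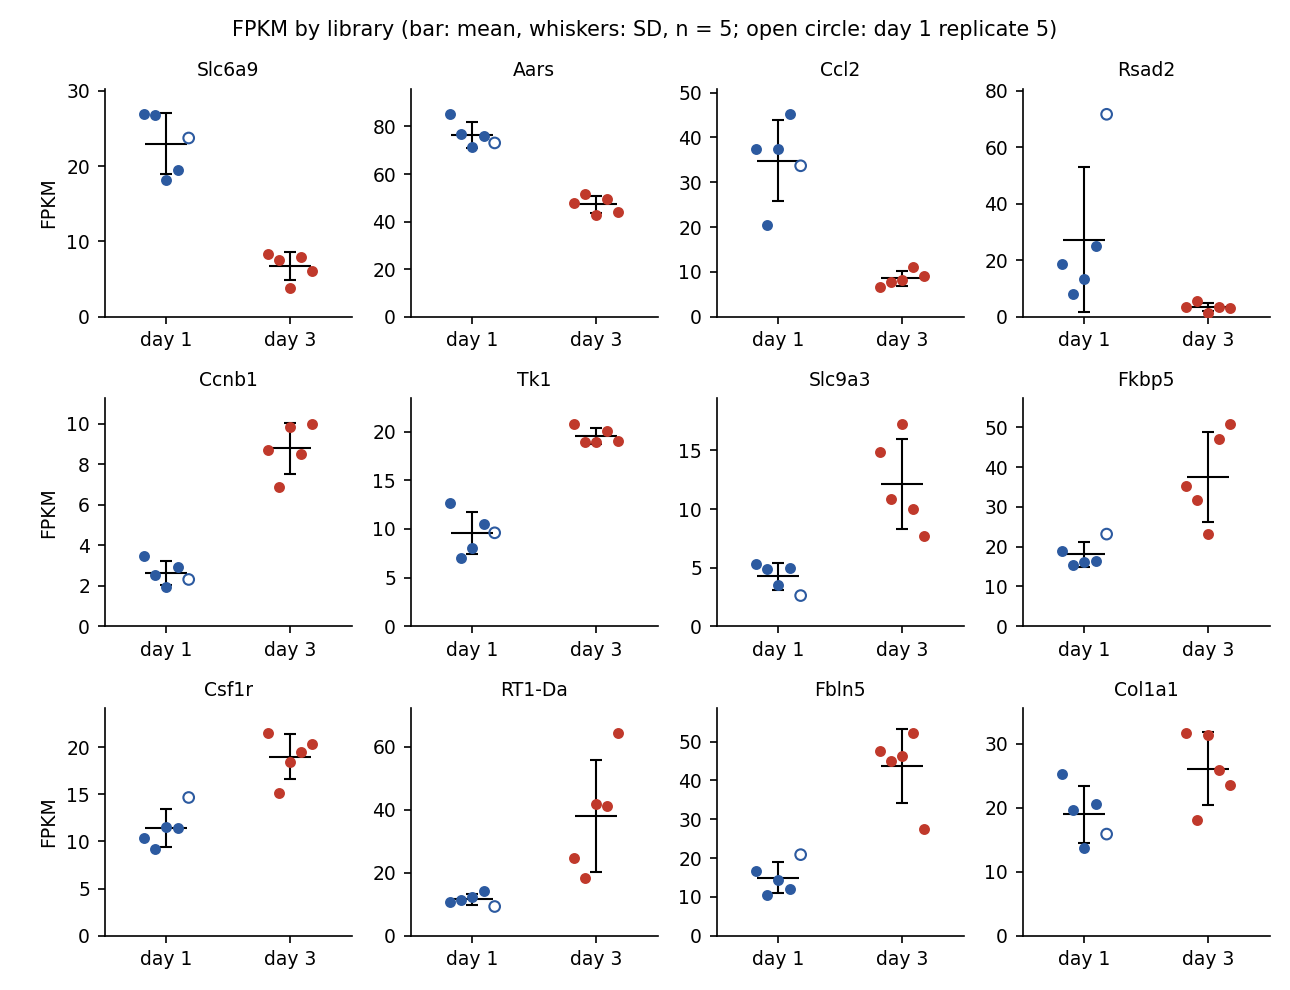
FPKM (vertical axes, from 0) of 12 genes in each of the 5 day 1 (blue) and 5 day 3 (red) libraries, with the mean and SD; the open circle is day 1 replicate 5. Points of the 2 groups do not overlap except in Col1a1, and Rsad2 shows replicate 5 at 71.7 above all other libraries.

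Some markers of macrophages and of antigen presentation rose. Of 33 monocyte and macrophage genes 8 rose and none fell, with a median of 0.52, against 4.62% of all genes called higher. Without day 1 replicate 5 16 rose with a median of 0.70, while calls higher over all genes went up to 8.04%. The score of that library for this list was 0.26, against -0.42 to -0.29 in the other day 1 libraries. Csf1r, the receptor that keeps macrophages alive, read 10.4, 9.23, 11.5, 11.4 and 14.7 FPKM at day 1 and 21.5, 15.2, 18.5, 19.4 and 20.3 at day 3. The groups did not overlap, although day 1 replicate 5 came close (log2 fold change 0.72 ± 0.12, edgeR adjusted p = 0.00909). Lyz2, lysozyme, read 302, 276, 360, 194 and 458 FPKM at day 1 and 687, 556, 524, 841 and 974 at day 3, also without overlap (1.16 ± 0.23, edgeR adjusted p = 0.0166). Trem2, a lipid-sensing receptor of tissue macrophages, rose from a mean of 0.764 to 3.44 FPKM (2.19 ± 0.43) and Clec10a, a galactose-binding lectin, from 1.77 to 9.89 (2.44 ± 0.44). At 7 days Csf1r averaged 41.9 FPKM and Clec10a 37.5, both above their day 3 means.

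Class II genes, which display peptides to CD4 T cells, had a median of 0.92 over 13 tested, of which 4 rose and none fell, or 5 and 1 without day 1 replicate 5. Their summed FPKM did not follow this, with 1939, 1689, 1879, 1679 and 1065 at day 1 and 1083, 1257, 1403, 1475 and 1903 at day 3. Replicates 1 to 4 of day 1 lay above those of day 3, and replicate 5 was the lowest of day 1 and the highest of day 3. The largest part of that sum was Lgmn, a lysosomal protease not limited to immune cells, chosen after its values were seen, which averaged 1301 and 858.6 FPKM and did not pass the test (-0.61 ± 0.21, edgeR adjusted p = 0.0960) but fell by 0.77 without day 1 replicate 5 (edgeR adjusted p = 0.0126). RT1-Da, a rat class II alpha chain, read 10.6, 11.3, 12.2, 14.2 and 9.26 FPKM at day 1 and 24.8, 18.4, 41.7, 41.1 and 64.3 at day 3. All day 3 libraries were higher, with a spread of more than 3-fold among them (log2 fold change 1.72 ± 0.31, edgeR adjusted p = 0.0117). Ciita, the master regulator of class II, rose by 1.61 ± 0.34, and the beta chain RT1-Db1 by 1.40 ± 0.30, and their adjusted p reached 0.0582 and 0.0566 without day 1 replicate 1. Reads of class II genes can be split between near-identical copies, which makes single members uncertain.

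Lymphocyte genes were low in both groups. Of 24 tested T and NK cell genes 3 rose and none fell, with a median of 0.63, against 4.62% of all genes called higher. Without day 1 replicate 5 2 rose and none fell, near the 8.04% of all genes. In summed FPKM the whole list of 37 ran from 45.5 to 71.5 at day 1 and from 50.5 to 136.2 at day 3. Cd4, carried by helper T cells and in rats also by macrophages, read 7.97, 5.96, 8.56, 6.77 and 10.1 FPKM at day 1 and 23.6, 12.8, 13.3, 26.6 and 19.2 at day 3, without overlap (1.25 ± 0.20, edgeR adjusted p = 0.00911). Cd7, of T and NK cells, rose by 1.68 ± 0.34. Cd3e, of the T cell receptor complex, read 0.693 to 1.16 FPKM at day 1 and 3.28, 0.965, 1.35, 3.44 and 2.17 at day 3. Day 3 replicate 2 lay within the day 1 range, and the log2 fold change of 1.23 ± 0.33 (edgeR adjusted p = 0.0463) had an adjusted p of 0.106 without day 3 replicate 4 and of 0.0582 without day 1 replicate 5. Ighm, the heavy chain of immunoglobulin M, rose by 1.39 ± 0.37 (adjusted p = 0.0966 without day 1 replicate 4). Of 11 tested B and plasma cell genes 1 rose and none fell, against 4.62% of all genes called higher. Without day 1 replicate 5 3 rose and none fell, against 8.04%. Of 18 neutrophil genes 5 were tested, and 0 of these passed the edgeR test or DESeq2 or had an unadjusted p under 0.05. The summed FPKM of all 18, of which Cxcr1 was at 0 in every library, ran from 12.9 to 66.7 at day 1 and from 15.5 to 70.2 at day 3, highest in replicate 5 of either day.

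Some fibroblast genes rose, while calls among collagens and matrix proteins were no more frequent than among all genes unless day 1 replicate 5 was left out. Of 36 fibroblast, pericyte and myofibroblast genes 6 rose and none fell, with a median of 0.18, and of 32 collagens and matrix proteins 1 rose and 1 fell, with a median of 0.23, against 4.62% and 4.18% of all genes. Without day 1 replicate 5 9 and 5 rose and 0 and 1 fell, against 8.04% and 6.63% of all genes. Fbln5, fibulin 5, which assembles elastic fibres, read 16.7, 10.6, 14.4, 12.1 and 20.9 FPKM at day 1 and 47.7, 45.0, 46.2, 52.1 and 27.5 at day 3. Replicate 5 was lowest at day 3 but still above all of day 1, and the log2 fold change was 1.54 ± 0.20 (edgeR adjusted p = 0.00473). Myl9, a myosin light chain of contractile cells, read 24.8, 16.6, 10.9, 15.0 and 15.3 FPKM at day 1 and 50.7, 50.02, 63.3, 63.5 and 25.4 at day 3 (1.61 ± 0.27, edgeR adjusted p = 0.0099). Its day 3 replicate 5 was barely above day 1 replicate 1. The collagens that make up scar were not yet called: Col1a1 averaged 19.0 FPKM at day 1 and 26.1 at day 3 (0.45 ± 0.19, edgeR adjusted p = 0.164), and Col3a1 45.4 and 61.8 (0.43 ± 0.16, edgeR adjusted p = 0.108). Without day 1 replicate 5 Col3a1 rose by 0.54 (edgeR adjusted p = 0.0356). At 7 days their means were 90.5 and 175 FPKM.

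Other genes of the matrix and its remodelling changed in both directions. Of 21 elastic fibre and microfibril genes 3 rose and 0 fell, and of 29 matrix proteases and inhibitors 3 rose and 1 fell. Of 25 basement membrane genes 1 rose and 1 fell, near the 4.62% and 4.18% of all genes. Without day 1 replicate 5 these counts were 5 and 0, 4 and 1, and 5 and 1, against 8.04% and 6.63%. Cpz, a carboxypeptidase with a Wnt-binding domain, rose from a mean of 2.61 to 10.6 FPKM (2.00 ± 0.30) and Adamts2, which trims procollagens, from 0.672 to 1.47 (1.10 ± 0.19). Efemp2, fibulin 4, rose by 0.48 ± 0.08. The microfibril protein Mfap2 rose by 1.52 ± 0.33, the gelatinase Mmp2 by 1.01 ± 0.23 and the PDGF receptor Pdgfrb of pericytes by 0.50 ± 0.12, and their adjusted p reached 0.0621 without day 1 replicate 1, 0.0654 without day 3 replicate 4 and 0.0714 without day 1 replicate 4. In the other direction, Fn1, fibronectin, read 90.9, 58.6, 84.9, 101 and 105 FPKM at day 1 and 70.6, 52.8, 35.9, 49.6 and 33.5 at day 3. The groups overlapped in day 3 replicate 1, and the log2 fold change of -0.88 ± 0.20 (edgeR adjusted p = 0.0243) had an adjusted p of 0.0615 without day 1 replicate 4. Lamb3, a laminin chain of epithelia, fell by 1.62 ± 0.40 (adjusted p = 0.0858 without day 3 replicate 4).

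Growth factor genes also moved both ways. Pdgfb, the ligand that recruits pericytes and fibroblasts, read 93.0, 72.7, 95.4, 99.3 and 70.3 FPKM at day 1 and 50.3, 45.3, 31.0, 50.3 and 41.8 at day 3. It fell without overlap (log2 fold change -0.997 ± 0.13, edgeR adjusted p = 0.00473), whereas its receptor Pdgfrb rose as given above. Of 42 genes of the EGF, FGF, PDGF, IGF and HGF systems 8 rose and 1 fell, with a median of 0.28, or 12 and 2 without day 1 replicate 5. The receptor Fgfr3 rose by 1.30 ± 0.22 and Igfbp4, which binds insulin-like growth factors, by 1.00 ± 0.19. Wnt2, a Wnt ligand, read 6.90, 6.94, 6.87, 5.21 and 4.26 FPKM at day 1 and 0.749, 1.96, 1.46, 1.27 and 3.29 at day 3. The groups were apart (-1.81 ± 0.35, edgeR adjusted p = 0.0163), with replicate 5 nearest to the other group at both days. Of 28 tested Wnt pathway genes 4 rose and 1 fell, with a median of 0.12, against 4.62% and 4.18% of all genes. Without day 1 replicate 5 6 rose and 1 fell, with a median of 0.39, against 8.04% and 6.63%. Gli1, a target of Hedgehog signalling, rose by 1.24 ± 0.31 from a mean of 0.362 FPKM, and its adjusted p reached 0.0827 without day 3 replicate 4. Apln, the vascular peptide apelin, rose by 1.73 ± 0.29.

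Further genes stood out by the size of their change or by the smallest p. Sdcbp2, syntenin 2, a PDZ protein of membrane traffic, read 24.5, 7.38, 13.4, 14.8 and 12.2 FPKM at day 1 and 0.529, 1.23, 0, 0.499 and 1.37 at day 3. Its log2 fold change of -4.33 ± 0.53 (edgeR adjusted p = 0.00442) was the largest among the 1203, and day 3 replicate 3 had no FPKM at all. Srms, a Src-like kinase of epithelia, read 22.0, 13.5, 20.1, 22.1 and 11.2 FPKM at day 1 and 3.11, 4.52, 3.32, 4.90 and 3.20 at day 3, without overlap (-2.24 ± 0.23, edgeR adjusted p = 0.00258). Eef1a2, a translation elongation factor best known from neurons and muscle, fell from a mean of 14.8 to 2.35 FPKM (-2.67 ± 0.36). The neurofilament Nefm fell from 6.32 to 2.04 (-1.63 ± 0.24) and Ptprn, a protein of secretory granules, from 219 to 93.5 (-1.25 ± 0.20). Hpx, the heme scavenger hemopexin, fell by 2.77 ± 0.48 with day 1 replicate 2 at 40.9 FPKM and the others at 8.39 to 13.0. Rnh1, the ribonuclease inhibitor, fell from 163 to 79.4 FPKM (-1.05 ± 0.13), Ppdpf from 344 to 141 (-1.30 ± 0.17) and Zfand2a, a stress-inducible zinc finger protein, from 22.0 to 11.3 (-0.98 ± 0.10).

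Among the rises chosen in the same way, Cys1, cystin of the primary cilium, read 20.9, 19.8, 15.0, 18.1 and 23.2 FPKM at day 1 and 44.5, 55.6, 37.1, 49.9 and 47.1 at day 3. The groups were well apart, with a log2 change of 1.26 ± 0.13 (edgeR adjusted p = 0.00258). Sept4, a septin, rose from a mean of 4.43 to 11.4 FPKM (1.36 ± 0.14), Aspa, which splits N-acetylaspartate, from 4.55 to 24.1 (2.42 ± 0.47) and Sult1a1, a phenol sulfotransferase, from 9.91 to 40.8 (2.02 ± 0.36).

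Classical markers of tubular injury did not move as a set. Of 33 tested 3 rose and 1 fell, with a median of -0.22, or 5 and 4 with a median of 0.12 without day 1 replicate 5. Havcr1, the kidney injury molecule KIM-1 of the proximal tubule, read 793, 857, 1040, 673 and 640 FPKM at day 1 and 542, 559, 188, 536 and 540 at day 3. Although every day 3 library was below every day 1 library, the log2 fold change of -0.79 ± 0.26 did not pass the test (edgeR adjusted p = 0.0833, DESeq2 adjusted p = 0.0234), with replicate 3 far below the rest at day 3. Lcn2, the lipocalin NGAL, read 279, 128, 181, 146 and 375 FPKM at day 1 and 344, 322, 174, 395 and 1674 at day 3 (1.39 ± 0.57, edgeR adjusted p = 0.147), and Spp1, osteopontin, averaged 6639 and 10210 (0.60 ± 0.23, edgeR adjusted p = 0.117, DESeq2 adjusted p = 0.0375). Cst3, cystatin C, rose from a mean of 253 to 386 FPKM (0.60 ± 0.11, edgeR adjusted p = 0.0120).

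**Figure D5:**
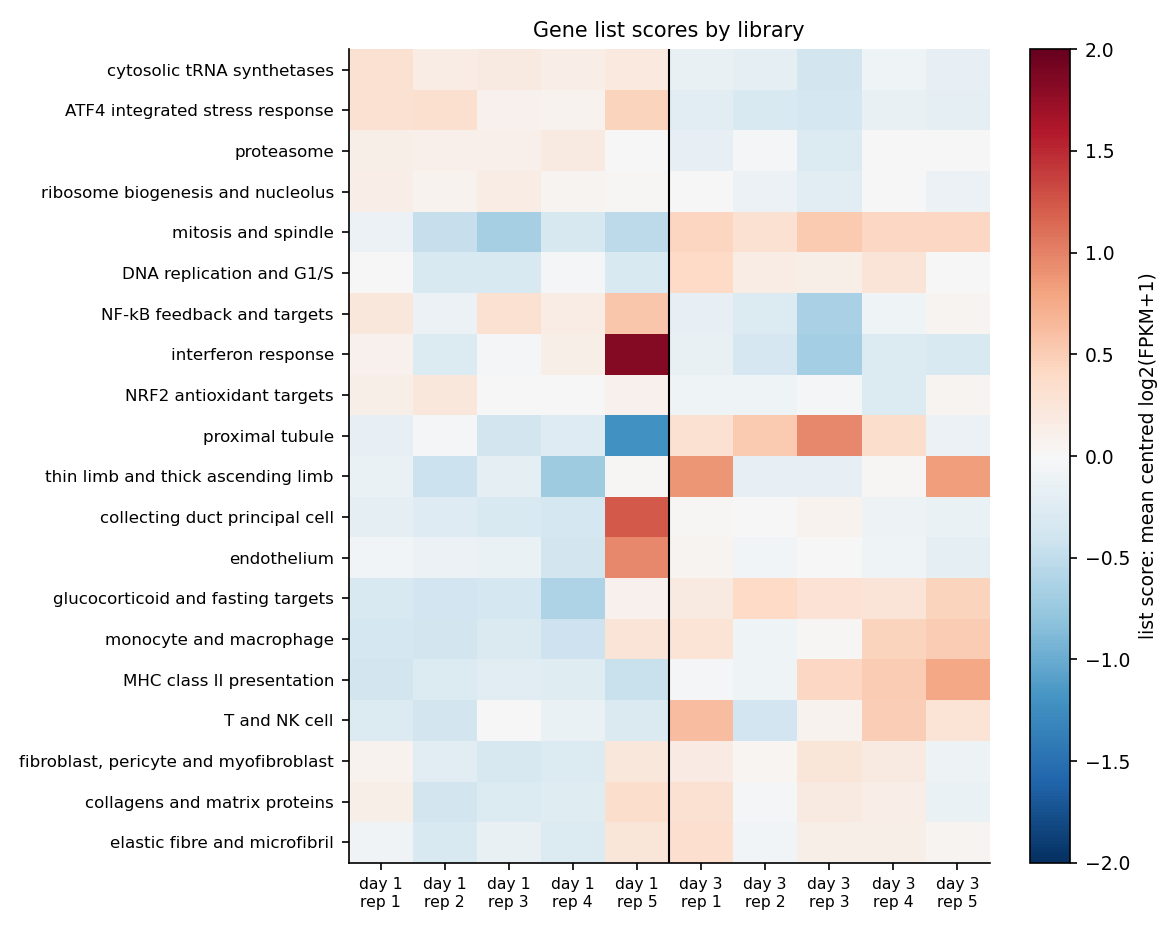
Scores of 20 gene lists (rows; mean centred log2(FPKM+1), red above and blue below the mean of the 10 libraries) in each library (columns). The mitosis and tRNA synthetase rows change colour between the 2 days in every library, while day 1 replicate 5 stands out in the interferon (1.84), collecting duct (1.23), endothelium (0.96) and proximal tubule (-1.21) rows.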

How the data were processed

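Renal parenchyma of rats with a tied left ureter was profiled by poly(A) RNA sequencing. The submitters' processing notes name fastp 0.19.7 and HISAT2 2.0.4. Counting tool, strand setting, annotation and genome build: not given in the sources used here. Per the file headers, the deposited table holds a read count and an FPKM value (fragments per kilobase and sequencing depth) for each gene in each library. Deposited FPKM were equal to the counts over a fixed gene length and the library's total.

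Genes with too few counts were removed by filterByExpr (min.count of 10, min.total.count of 15). The rest were scaled by TMM and tested by quasi-likelihood in edgeR 4.0.16 under R 4.3.3, with these 10 libraries alone. Genes called have a Benjamini-Hochberg adjusted p under 0.05. The SE was derived from the log2 fold change and the F statistic. On simulated counts of 13675 genes, 71% of 2-fold and 96% of 4-fold changes were recovered, and 5.65% of calls were false. The simulation drew counts independently around 1 mean per gene, with 200 changed genes and no outlying library. Its rates therefore need not hold for the calls made here. Alternatives used DESeq2 1.42.0, limma 3.58.1, other scalings, filters and libraries. Labels do not tie libraries to animals, so a p-value here reflects only how much libraries differ, which may be technical.

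Members, lists and tests were chosen with earlier results of these data known. Named genes are called genes with the largest changes or smallest p, up to 6 per list, and a fixed set of markers, and a few of them are not reported here. Exceptions are Mars, Atf4, Ddit3, Hars, Qars, Farsa and Lgmn, chosen after their values were seen. Sequences come from the RefSeq promoter table (GRCr8), with the first window listed per gene. Libraries of 14 days entered only an alternative fit, and no library of the sham group that the series' design names is among the samples of the series.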

Additional observations from a re-analysis of the deposited data

Results flagged for a closer look

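In groups of 5 libraries, a library was marked when its gap to the nearest other exceeded 0.71 of the group's range (Dixon's test). Chance marks about 1 in 20 groups where values are independent and normally distributed. The groups here share the same 10 libraries and many genes were chosen by their values, so that rate need not hold for them. Of 308 groups 35 were marked, 15 of them for day 1 replicate 5, 8 for day 3 replicate 3 and 4 for day 3 replicate 5. No cause was tested.

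Replicate 5 of day 1 had scores of 66.8 and 36.5 on the first and second principal component. Its list scores were 1.84 for interferon response, -1.21 for proximal tubule, 1.23 for collecting duct, 0.96 for endothelium and 0.26 for monocytes and macrophages. Among genes it was high for Rsad2 (71.7 FPKM), Ifi35 (54.8), Aqp2 (371), Ddit3 (17.6) and Krt7 (71.3) and low for Acy1 (28.8), Ppdpf (222) and Aspa (1.5).

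Replicate 3 of day 3 was low for Tars (16.5 FPKM), Mars (26.5), Nfkb1 (29.6) and Havcr1 (188) and high for Acsm3 (603), Eri2 (169), Acy1 (394) and Fgfr3 (32.9). Replicate 5 of day 3 was high for Lcn2 (1674), Sod2 (189) and Akr1b8 (11.4) and low for Fbln5 (27.5). Replicate 4 of day 1 was high for Foxm1 (2.11) and low for Psmd11 (23.0) and Kcnj1 (10.4). Single marks were Atf4 in day 3 replicate 4 (177), Ifih1 in day 3 replicate 1 (7.69), Traf1 in day 1 replicate 3 (9.51), and Qars (52.6) and Hpx (40.9) in day 1 replicate 2.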

How the results depend on the processing

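Against 1203 calls (632 higher, 571 lower), DESeq2 gave 2109 (1079 and 1030), voom with sample quality weights 2950 (1513 and 1437), and a fit of all 18 libraries 330 (168 and 162). Lower calls numbered 322 when scaled by library totals alone, 348 in limma on log2(FPKM+1) and 342 on log2(FPKM+0.1). With each library left out in turn, calls ran from 440 to 2005, with 251 to 1099 higher and 189 to 906 lower. RLE or upper-quartile factors, a fit of 15 libraries, robust spread and other count filters stayed within 1.5 times on each count.

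Replicate numbers are shared by both days, but the deviations of same-numbered libraries correlated at -0.165 to 0.174 and 1 of 5 correlated best with its own number, so they were not taken as pairs. A replicate block gave 535 calls (323 higher and 212 lower).

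None of the 132 named genes changed direction under the 23 alternatives (DESeq2 gave no adjusted p for Aqp2), and 51 of the 116 called ones passed in each. Medians of 21 of 60 lists changed sign in 58 cases, among them collecting duct, endothelium, tubular injury, cytokines, neutrophil, distal tubule, heat shock and lysosome. Depths of 5488540 to 12049915 counts limit genes of low FPKM such as Tdh and Gli1. In limma on log2(FPKM+1), Gli1 and Cd3e did not pass (0.44 and 0.68).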

Other observations

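Of 29 tested genes of cholesterol synthesis and uptake 5 fell and none rose, with a median log2 fold change of -0.23 (4.18% of all genes fell). Of 30 genes of the TCA cycle and pyruvate oxidation 3 rose and none fell, with a median of 0.13. Of 39 transcription factors of the kidney 6 rose and 2 fell, with a median of 0.31. Among 35 genes of lysosome and autophagy 3 rose and 4 fell, or 6 and 5 without day 1 replicate 5, with a median of -0.02 that turned positive in limma on FPKM (0.005). Of 19 genes of the distal convoluted and connecting tubule 0 passed the edgeR test, 6 had an unadjusted p under 0.05 and 3 passed in DESeq2, and without day 1 replicate 5 3 rose and 1 fell. Of 21 intercalated cell genes 0 passed in edgeR or DESeq2 and 4 had an unadjusted p under 0.05.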
